A study of Rattus norvegicus with 2 samples.

Results

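The oligodendrocyte lineage genes described here were 10 genes of the 25399 in the deposited gene table, Olig1, Olig2, Cnp, Gal3st1, Cmtm5, Ugt8, Bcas1, Pdgfra, Sox10 and Cspg4. They were found by symbol, and all 10 were in the table. They were chosen by their CPM ratios between the 2 libraries, which were already known, so those ratios describe the genes and carry no test. The cells were rat (Rattus norvegicus) neural stem cells, bought as cells taken from the cortex of Sprague-Dawley rats at stage E14.5 of embryonic life. They were cultured with FGF2, a growth factor that keeps such cells from differentiating. The vehicle culture received DMSO at 0.2% for 48 h, and the treated culture received 30 µM ZD7288 in the same amount of DMSO for the same time, with medium and compound renewed at 24 h. ZD7288 blocks HCN channels, which carry a cation current opened by hyperpolarisation. A spelling differs: ZD2788 in the treatment label of the treated sample, ZD7288 in the title and protocol.

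Oligodendrocytes wrap axons in myelin, a lipid-rich membrane, and they arise from dividing precursors. The basic helix-loop-helix factors OLIG1 and OLIG2 act early in the lineage. They are also made by neural progenitors grown with FGF2, so their transcripts alone do not mark a committed cell. Precursors carry the PDGF receptor encoded by Pdgfra and the proteoglycan encoded by Cspg4. SOX10 directs the later programme of myelin genes, to which Cnp, Ugt8, Gal3st1, Cmtm5 and Bcas1 belong.

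Each group was 1 culture and 1 droplet library, so treatment, culture and library cannot be told apart and no test was possible. Levels are summed unique molecular identifiers (UMIs, 1 per captured molecule) per 1000000 UMIs of a library, written CPM. They count 3′ ends and are not divided by gene length. Ranges in parentheses are exact 95% intervals that cover counting error only. After filtering, the vehicle library held 732 cells with a median of 17119 UMIs, and the treated library 3135 cells with a median of 23001. Mitochondrially encoded UMIs had a median share of 5.84% in the vehicle cells and 4.7% in the treated ones. The libraries shared 3 barcode sequences. Barcodes were given to libraries by the number after the hyphen and the number that opens each sample title, and every direction below rests on that match.

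Transcripts of Olig1, Olig2 and several myelin-related genes were less abundant in the treated library, while Bcas1 and Ugt8 differed little. Of the 10 genes, 6 reached the level called measured, at least 20 CPM in the higher library. Gal3st1 and Cmtm5 reached it through the vehicle library only, so they could enter these counts only as lower genes. By a rule of 1.5-fold, 5 of these 6 were lower with ZD7288 and 0 higher. Over all 4823 measured genes, 5.2% were lower by this rule and 10.1% higher. At 2-fold, 3 of the 6 were lower (Cnp, Gal3st1 and Cmtm5) and 0 higher, beside 1.26% and 2.88% of all measured genes. Since this contrast chose the genes, nothing is read from the comparison of these shares. The median log2 ratio was -0.99 over the 6 members and 0.09 over all measured genes.

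Among the regulators, Olig1 (ENSRNOG00000028648) had 1687 CPM (1667 to 1708) with vehicle and 896 CPM (889 to 903) with ZD7288. Olig2 (ENSRNOG00000028658), its neighbour on chromosome 11 with 0 protein-coding genes between them in the RefSeq annotation of GRCr8, stood at 432 CPM (421 to 442) and 268 CPM (264 to 271). The treated library was the lower for both, by 1.88-fold (1.86 to 1.91) for Olig1 and 1.61-fold (1.57 to 1.66) for Olig2. The ratio of Olig1 to Olig2 CPM was 3.91 with vehicle and 3.35 with ZD7288. Sox10 was nearly absent, with 3 UMIs with vehicle and 10 with ZD7288. The 10 treated UMIs came from 4 cells, and 1 of those cells held 4 of them.

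Of the genes for receptors and surface proteoglycans, neither reached 20 CPM. Pdgfra had 22 UMIs in 20 vehicle cells and 8 UMIs in 7 treated cells, or 1.41 CPM (0.883 to 2.13) and 0.109 CPM (0.0469 to 0.214). Its interval for the difference ran from 5.57-fold to 33.7-fold lower in the treated library. That size depends on depth and filter: the log2 ratio, -3.70, was -2.0 with each cell thinned to 5000 UMIs, where few UMIs are left, and -5.39 under a stricter cell filter. Cspg4, which encodes the NG2 proteoglycan, stood at 7.24 CPM (5.97 to 8.70) and 2.04 CPM (1.72 to 2.39), 3.56-fold lower (2.76 to 4.57). Both surface markers were thus rare transcripts in either library, and rarer in the treated one.

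The myelin-related genes divided into genes with a wide difference and genes with little. Cnp, which encodes a phosphodiesterase of non-compact myelin, had 142 CPM (136 to 148) with vehicle and 67.6 CPM (65.8 to 69.5) with ZD7288, 2.10-fold lower (2.00 to 2.21). Gal3st1 encodes the sulfotransferase that turns galactosylceramide into the myelin lipid sulfatide. It had 33.9 CPM (31.1 to 36.9) and 5.74 CPM (5.21 to 6.31), 5.90-fold lower (5.18 to 6.72). It lay at place 2 from the lowest ratio of all measured genes. Nothing is read from that place, since the gene was chosen by this ratio and reached 20 CPM in the vehicle library only. Cmtm5, which encodes a membrane protein of the MARVEL family found in myelin, had 20.8 CPM (18.6 to 23.1) and 4.6 CPM (4.12 to 5.12), 4.51-fold lower (3.86 to 5.27). It sat just above the 20 CPM level in the vehicle library, and Cspg4 at 7.24 CPM was the highest of the 4 genes below that level.

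Ugt8 and Bcas1 did not follow Gal3st1 and Cmtm5. Ugt8 encodes the enzyme that makes galactosylceramide, the step before GAL3ST1. Its UMIs numbered 55 with vehicle and 225 with ZD7288, which is 3.52 CPM (2.65 to 4.59) and 3.05 CPM (2.67 to 3.48), with a ratio of 0.867 (0.643 to 1.19). Bcas1, a gene that marks oligodendrocytes early in myelin formation, had 46.7 CPM (43.4 to 50.2) and 41.2 CPM (39.7 to 42.7), with a ratio of 0.882 (0.813 to 0.957). Along the route to sulfatide, a difference in the transcript of the first enzyme was not detectable at this depth, since its interval spans 1. The transcript of the next enzyme was 5.90-fold lower (5.18 to 6.72), a ratio by which the gene was chosen.

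**Figure D1:**
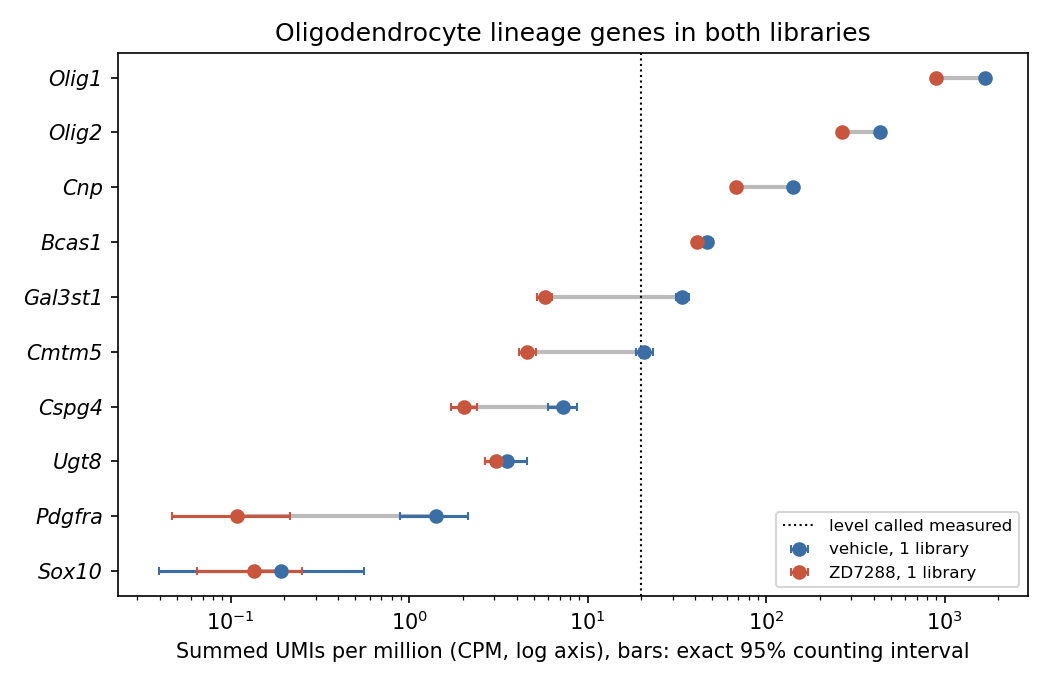
Level of each of the 10 genes in CPM (log axis) in the vehicle (blue) and ZD7288 (red) libraries, 1 library each, with exact 95% counting intervals as bars and the 20 CPM level as a dotted line. Olig1 had 1687 and 896 CPM and Gal3st1 33.9 and 5.74 CPM, while the Bcas1 points, at 46.7 and 41.2 CPM, lie close together.

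**Figure D2:**
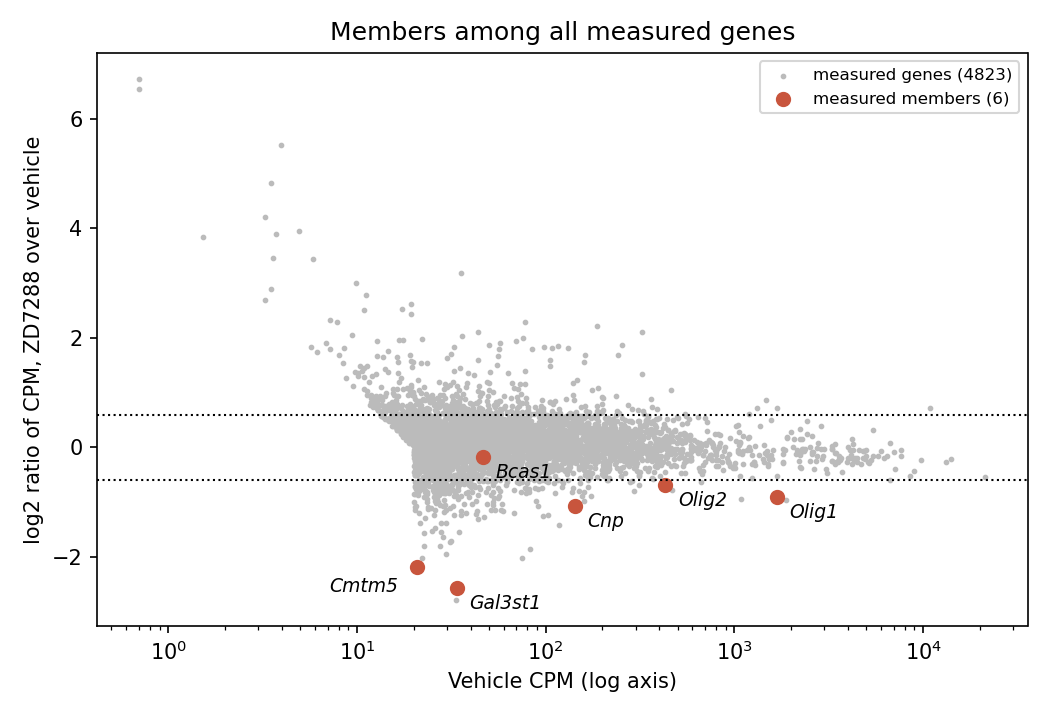
Log2 ratio of ZD7288 to vehicle CPM against vehicle CPM (log axis) for the 4823 measured genes (grey) and the 6 measured members (red), with dotted lines at 1.5-fold in either direction. Olig1, Olig2, Cnp, Gal3st1 and Cmtm5 lie below the lower line and Bcas1 lies between the lines.

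The label of a lineage was checked against markers of its stages, and many of these were scarce while others were well expressed. Of 20 genes of precursors and the early lineage, 19 were found in the table and 10 of them were under 1 CPM in both libraries. Gpr17, a receptor of committed precursors, had 0 UMIs in each library, and Nkx2-2, a factor of the lineage, had 10 and 40. A count of 0 allows up to 3 UMIs, or 0.192 CPM in the vehicle and 0.0407 CPM in the treated library. Of 29 genes of differentiating and myelinating cells found in the table, 17 were under 1 CPM in both libraries. Mag and Opalin had 0 UMIs, and Mbp, which encodes a main protein of compact myelin, had 3 and 10. Among genes of these lists that other neural cells also express, Ptprz1 stood at 204 and 142 CPM and Fyn at 207 and 226 CPM. Below 20 CPM, Aspa, which encodes an enzyme of oligodendrocytes that breaks down N-acetylaspartate, ran against the lower members, at 2.24 CPM (1.56 to 3.12) with vehicle and 11.0 CPM (10.3 to 11.8) with ZD7288, 4.93-fold higher (3.51 to 7.12). Apod was 2.45-fold higher (1.14 to 6.29) on 7 and 81 UMIs. These 4 genes are named outside the rule, after their values were seen. With Sox10, Pdgfra, Mbp, Mag and Opalin at or near 0, the 10 genes name a lineage that these cells did not carry as a whole programme. They are called the lineage genes here by their list only.

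The promoters of 4 of the 5 lower members were in the RefSeq promoter table of GRCr8 and are shown because these genes stood lower together. Each runs from 250 bases before to 50 bases after the annotated start. That of Olig2 is chr11:43961335-43961634 on the plus strand, that of Cnp chr10:86011254-86011553 on the plus strand, that of Gal3st1 chr14:83094135-83094434 on the plus strand and that of Cmtm5 chr15:32382358-32382657 on the plus strand. Which build the counts used is not stated here, and these coordinates belong to the RefSeq table alone. Capitals mark CANNTG, the E-box that basic helix-loop-helix factors can bind, which reads as an E-box on either strand.
Olig2: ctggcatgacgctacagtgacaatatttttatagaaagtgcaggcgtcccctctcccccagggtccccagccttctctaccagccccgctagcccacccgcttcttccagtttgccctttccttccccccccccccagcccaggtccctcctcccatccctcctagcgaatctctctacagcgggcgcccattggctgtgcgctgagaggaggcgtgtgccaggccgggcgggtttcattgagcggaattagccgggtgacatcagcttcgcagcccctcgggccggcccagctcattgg
Cnp: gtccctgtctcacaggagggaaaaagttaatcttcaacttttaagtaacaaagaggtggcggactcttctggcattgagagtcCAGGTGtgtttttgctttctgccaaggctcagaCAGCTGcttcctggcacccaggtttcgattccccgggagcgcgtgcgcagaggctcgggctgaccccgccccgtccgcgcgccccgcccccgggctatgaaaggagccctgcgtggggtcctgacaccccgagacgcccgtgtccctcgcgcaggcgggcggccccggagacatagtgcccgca
Gal3st1: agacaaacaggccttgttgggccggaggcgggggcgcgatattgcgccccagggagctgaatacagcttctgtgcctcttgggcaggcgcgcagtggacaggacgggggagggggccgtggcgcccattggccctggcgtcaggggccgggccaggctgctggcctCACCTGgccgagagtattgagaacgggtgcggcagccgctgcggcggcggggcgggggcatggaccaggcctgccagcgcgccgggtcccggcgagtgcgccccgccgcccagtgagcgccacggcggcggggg
Cmtm5: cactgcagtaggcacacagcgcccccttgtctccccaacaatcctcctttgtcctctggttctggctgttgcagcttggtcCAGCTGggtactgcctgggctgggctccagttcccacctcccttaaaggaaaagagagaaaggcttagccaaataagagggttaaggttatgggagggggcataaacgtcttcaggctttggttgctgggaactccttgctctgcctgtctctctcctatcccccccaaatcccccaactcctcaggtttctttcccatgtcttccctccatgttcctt

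E-boxes are common letters in promoters. Of 33469 promoters of the same length, 72.1% held CANNTG on either strand. Olig2 held 0 matches, Cnp 2, Gal3st1 1 and Cmtm5 1. The E-box CAGCTG, which is also counted among the CANNTG matches, occurred in 15.1% of promoters, and Cnp and Cmtm5 held 1 each. ACAAAG, a core of SOX factor sites, occurred in 18.8%, and Cnp and Cmtm5 held 1 match each, while Olig2 and Gal3st1 held 0. TGATGNAA, a form of the element that ATF4 binds with C/EBP factors, occurred in 3.98% and in 0 of these 4 promoters. Each motif was searched on both strands. Of the 10 genes, 7 had a promoter in the table. These matches describe letters in the windows and say nothing of binding.

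Olig1 was detected in nearly every cell of both libraries, and its lower level in the treated library was spread over the cells. Each cell of at least 5000 UMIs was thinned to 5000 UMIs, which kept 710 vehicle and 2838 treated cells and left out 22 and 297. Vehicle cells held a 5th percentile of 3, a median of 8 and a 95th percentile of 16 Olig1 UMIs, with at most 26 in a cell. Treated cells held 1, 4 and 10 at the same percentiles, with at most 22. The distributions overlapped widely, and 27.1% of treated cells lay under the 5th percentile of vehicle cells, against 4.23% of vehicle cells. At or above the vehicle median of 8 UMIs lay 58.5% (54.7 to 62.1) of vehicle cells and, with ZD7288, 15.4% (14.1 to 16.8).

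The mean was 8.68 Olig1 UMIs (SD over cells 4.11) in vehicle and 4.61 (SD 3.01) in treated cells. The variance divided by the mean was 1.94 in vehicle and 1.97 in treated cells. As the means differ, these near values do not show an equal spread relative to the mean. Cells without an Olig1 UMI made up 0.141% of vehicle and 3.52% of treated cells. A Poisson count with the same mean would give 0.0171% and 0.999%. An Olig1 UMI was present in 99.9% of vehicle cells, 709 of 710, and in 96.5% (95.7 to 97.1) with ZD7288. For Olig2 the median was 2 UMIs in vehicle and 1 in treated cells, and the shares of cells with a UMI were 84.9% (82.1 to 87.5) and 71.2% (69.5 to 72.8). Cells with neither Olig1 nor Olig2 numbered 0 of 710 in the vehicle library, which allows a share of up to 0.423% by 3 cells, and 48 of 2838, or 1.69% (1.25 to 2.24), in the treated library. Whether the cells with neither gene carried markers of another type was not examined, and what free RNA adds to the shares was not tested.

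The other measured genes were seen in a minority of cells at this depth. Cells with a Cnp UMI made up 44.4% (40.7 to 48.1) in the vehicle library and 27.6% (26 to 29.3) with ZD7288. The mean was 0.759 Cnp UMIs (SD over cells 1.15) in vehicle and 0.358 (SD 0.682) in treated cells. For Gal3st1 the shares were 15.2% (12.6 to 18.1) and 2.78% (2.21 to 3.46), and for Cmtm5 10% (7.89 to 12.4) and 1.94% (1.46 to 2.52). Bcas1 stood apart, at 19.6% (16.7 to 22.7) and 18.7% (17.3 to 20.2), with overlapping intervals. Without thinning, the shares in vehicle and treated cells were 99.7% and 97.4% for Olig1, 97.7% and 93.2% for Olig2, 77.9% and 66.7% for Cnp, 36.3% and 9% for Gal3st1, 29.2% and 8.55% for Cmtm5, and 53.1% and 52.1% for Bcas1.

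For the rarest genes the thinned shares rested on few cells. Cspg4 was seen in 23 vehicle cells and 22 treated cells, or 3.24% (2.06 to 4.82) and 0.775% (0.486 to 1.17). Ugt8 was seen in 1.41% (0.677 to 2.57) and 1.59% (1.16 to 2.12). Pdgfra and Sox10 were each seen in 2 vehicle and 2 treated cells, too few at this depth for a difference to be detectable. Unthinned, Cspg4 was present in 12.3% of vehicle and 4.4% of treated cells, Ugt8 in 7.24% and 6.76%, Pdgfra in 2.73% and 0.223%, and Sox10 in 0.410% and 0.128%.

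**Figure D3:**
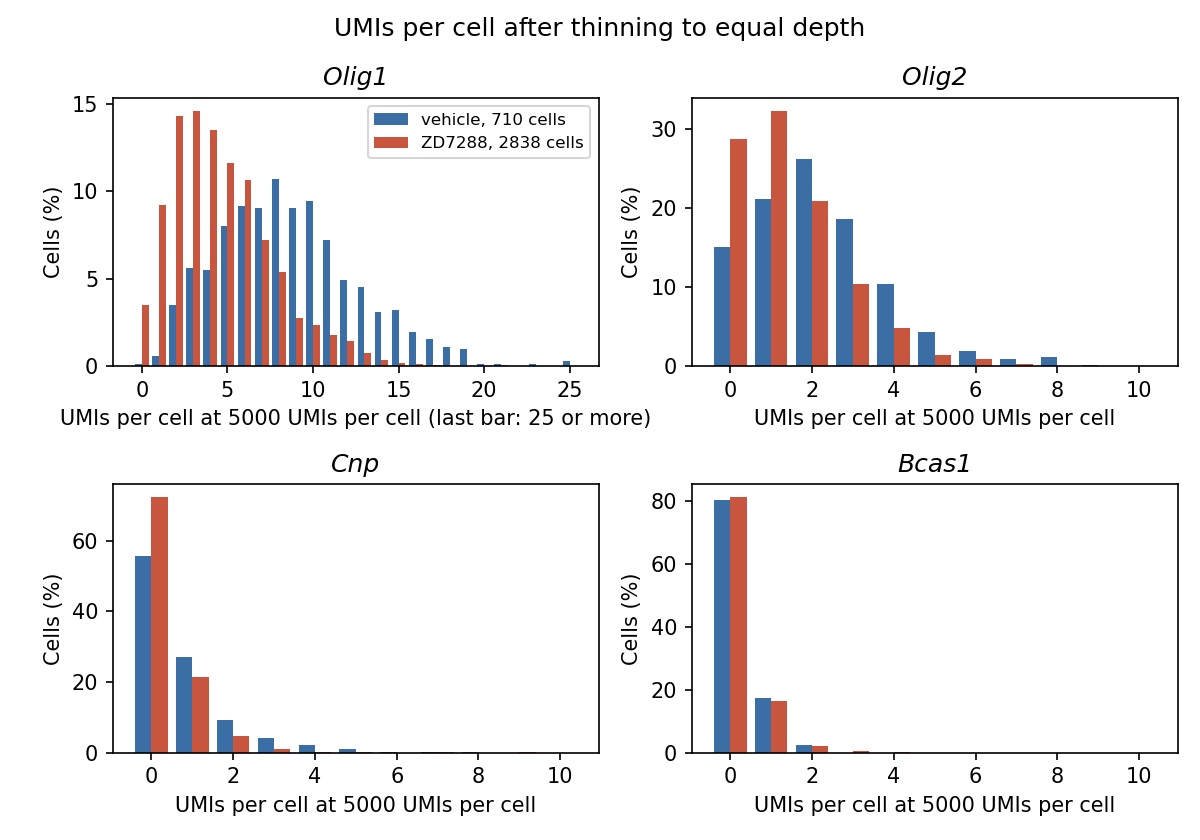
Percentage of cells by UMIs per cell of Olig1, Olig2, Cnp and Bcas1 after thinning every cell to 5000 UMIs, for 710 vehicle cells (blue) and 2838 ZD7288 cells (red). The Olig1 bars of treated cells lie to the left with a median of 4 against 8 UMIs, and the Bcas1 bars nearly coincide.

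Counted together, vehicle cells held more of the genes per cell. At 5000 UMIs the mean was 2.79 of the 10 genes (SD over cells 0.949, 710 cells) in vehicle cells and 2.21 (SD 0.864, 2838 cells) in treated cells. Cells with at least 4 of the genes made up 22.0% (19.0 to 25.2) with vehicle and 6.45% (5.57 to 7.42) with ZD7288. Correlations between the genes from cell to cell were low. The mean was 2.22 Olig2 UMIs in vehicle and 1.40 in treated cells, and 0.759 and 0.358 for Cnp. Counting error at such counts lowers a correlation, so how closely the genes are tied cannot be read from it. As a description over cells that share a library and a depth, the Pearson correlation of log(1 + UMIs) between Olig1 and Olig2 was 0.15 in vehicle and 0.20 in treated cells, and between Olig1 and Cnp 0.24 and 0.17.

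In the treated library, the few cells with a Gal3st1 UMI more often held Cnp. A Cnp UMI was present in 46.8% (35.5 to 58.4) of the 79 treated cells with a Gal3st1 UMI and in 27.0% (25.4 to 28.7) of the 2759 without one. In the vehicle library these shares were 52.8% (42.9 to 62.5) of 108 cells and 42.9% (38.9 to 46.9) of 602 cells, with intervals that overlap. Gal3st1 and Cmtm5 were seen together in 8 vehicle cells and 9 treated cells. Of the 55 treated cells with a Cmtm5 UMI, 16.4% (7.77 to 28.8) held Gal3st1, against 2.52% (1.97 to 3.17) of those without. The vehicle library did not show this. There Gal3st1 was held by 11.3% (4.99 to 21) of 71 cells with a Cmtm5 UMI and 15.6% (12.9 to 18.7) of 639 without, with overlapping intervals. Whether the libraries differ in these pairings was not tested.

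The genes whose UMIs went most closely with those of the members across cells, of 4823 measured, formed a small recurring set. Likeness was the mean of the vehicle and treated Pearson correlations over 710 and 2838 cells. Fabp7, which encodes a fatty acid binding protein of radial glia, was first for Olig1 at 0.24 and for Cnp at 0.21. Ppp1r14b was second for Olig1 at 0.23, and Cst3, which encodes a secreted protease inhibitor, was the fourth at 0.20, with Cnp between them at 0.20. For Olig2 the order was Olig1 at 0.17, Cst3 at 0.11, Ppp1r14b at 0.11 and Fabp7 at 0.11. For Cnp, Fabp7 was followed by Olig1 at 0.20, Cfap52 at 0.17 and Ppp1r14b at 0.15. For Gal3st1 they were Tpm1 at 0.11, Cnp at 0.10, Sulf2 at 0.099 and Ppp1r14b at 0.097. These correlations are weak, the cells share a library, and they are no finding.

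The members were then compared within ranges of cell cycle RNA, because the libraries differed in the share of cells low in it. The ranges were set by UMIs of S phase and G2/M gene lists at 5000 UMIs per cell and are ranges of a score, not cell types. Cells under 25 list UMIs were 87, or 12.3% (9.93 to 14.9), of vehicle and 725, or 25.5% (23.9 to 27.2), of treated cells. From 25 UMIs on, cells with at least as many S phase as G2/M UMIs, called S-weighted, numbered 105 and 464, and the remainder, called G2/M-weighted, 518 and 1649. Within 2 UMIs of the threshold lay 6.20% of vehicle and 4.51% of treated cells. Among cells from 25 UMIs, 8.35% and 8.19% had S phase and G2/M UMIs within 2 of each other. Median UMIs per cell in the ranges were 13798, 15131 and 19044 in the vehicle and 21738, 21557.5 and 26239 in the treated library.

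Most measured members were lower with ZD7288 in each range. In cells under 25 UMIs, 4 of 5 measured members were at least 1.5-fold lower, where 9.52% of all measured genes were. Among S-weighted cells, 3 of 5 were lower, against 4.09% of genes, and among G2/M-weighted cells 5 of 6, against 4.76%. The member that passed in the other ranges and not in S-weighted cells was Olig2, at 1.44-fold lower (1.32 to 1.56). Cmtm5 was under 20 CPM in both other ranges, and its ratio there was 0.238 (0.153 to 0.378) in cells under 25 UMIs and 0.264 (0.170 to 0.417) in S-weighted cells. The contrast that chose the genes is present in all ranges, so these counts too are a description.

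Olig1 in vehicle cells stood at 1983 CPM (1912 to 2056) in cells under 25 UMIs, 1633 CPM (1574 to 1694) in S-weighted and 1659 CPM (1637 to 1682) in G2/M-weighted cells. In the treated library these values were 941 CPM (927 to 956), 1018 CPM (998 to 1037) and 854 CPM (846 to 863). Every treated range was thus below every vehicle range. The highest range was the one under 25 UMIs in vehicle cells and the S-weighted one in treated cells. The treated library was 2.11-fold lower (2.02 to 2.19), 1.61-fold lower (1.54 to 1.67) and 1.94-fold lower (1.91 to 1.98) in the same order.

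Cnp varied most with the cell cycle range among the vehicle values of Olig1, Olig2 and Cnp. It stood at 199.6 CPM (177 to 224) in vehicle cells under 25 UMIs, 154 CPM (136 to 173) in S-weighted and 133 CPM (127 to 140) in G2/M-weighted cells. The first was 1.5 times (1.32 to 1.69) the last, just short of 1.5-fold before rounding. In treated cells Cnp stood at 72.6 CPM (68.5 to 76.8), 74.5 CPM (69.4 to 80.0) and 64.2 CPM (62.0 to 66.6), and the same ratio was 1.13 (1.06 to 1.21). The difference between libraries in Cnp was 2.75-fold (2.41 to 3.13) under 25 UMIs, 2.07-fold (1.79 to 2.38) in S-weighted and 2.08-fold (1.95 to 2.21) in G2/M-weighted cells, lower in the treated library each time.

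Olig2 hardly moved with the range within a library, at 446 CPM (413 to 482), 395 CPM (367 to 426) and 434 CPM (422 to 446) in vehicle and 257 CPM (249 to 265), 275 CPM (265 to 285) and 269.5 CPM (265 to 274) in treated cells. Gal3st1 was 42.2 CPM (32.4 to 54.1), 24.4 CPM (17.7 to 32.9) and 34.1 CPM (30.9 to 37.5) in vehicle cells, and 5.43, 4.77 and 6.08 CPM in treated cells. Its vehicle value in S-weighted cells rested on 43 UMIs. Bcas1 had ratios of 0.932 (0.711 to 1.24), 0.835 (0.657 to 1.07) and 0.910 (0.829 to 0.999) in the 3 ranges. Ugt8 in treated cells was lower under 25 UMIs, at 1.83 CPM (1.24 to 2.61), than in G2/M-weighted cells, at 3.47 CPM (2.95 to 4.05), on 30 and 161 UMIs.

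Between ranges of the same library, few members passed 1.5-fold. Among vehicle cells, cells under 25 UMIs were set against S-weighted cells with 5 members measured, and 1 was higher and 0 lower, beside 3.49% and 9.87% of all measured genes. That member was Gal3st1, at 1.73-fold (1.15 to 2.61), on 62 and 43 UMIs. Against G2/M-weighted cells, 0 of 6 members were higher or lower, beside 1.55% and 7.12% of genes, and between G2/M-weighted and S-weighted cells 0 of 6, beside 4.53% and 3.18%. Among treated cells 0 of 4 measured members passed in any of the 3 comparisons. The genes higher and lower there were 1.44% and 7.03% for cells under 25 UMIs against S-weighted cells, 1.9% and 6.87% against G2/M-weighted cells, and 2.4% and 2.06% for G2/M-weighted against S-weighted cells.

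**Figure D4:**
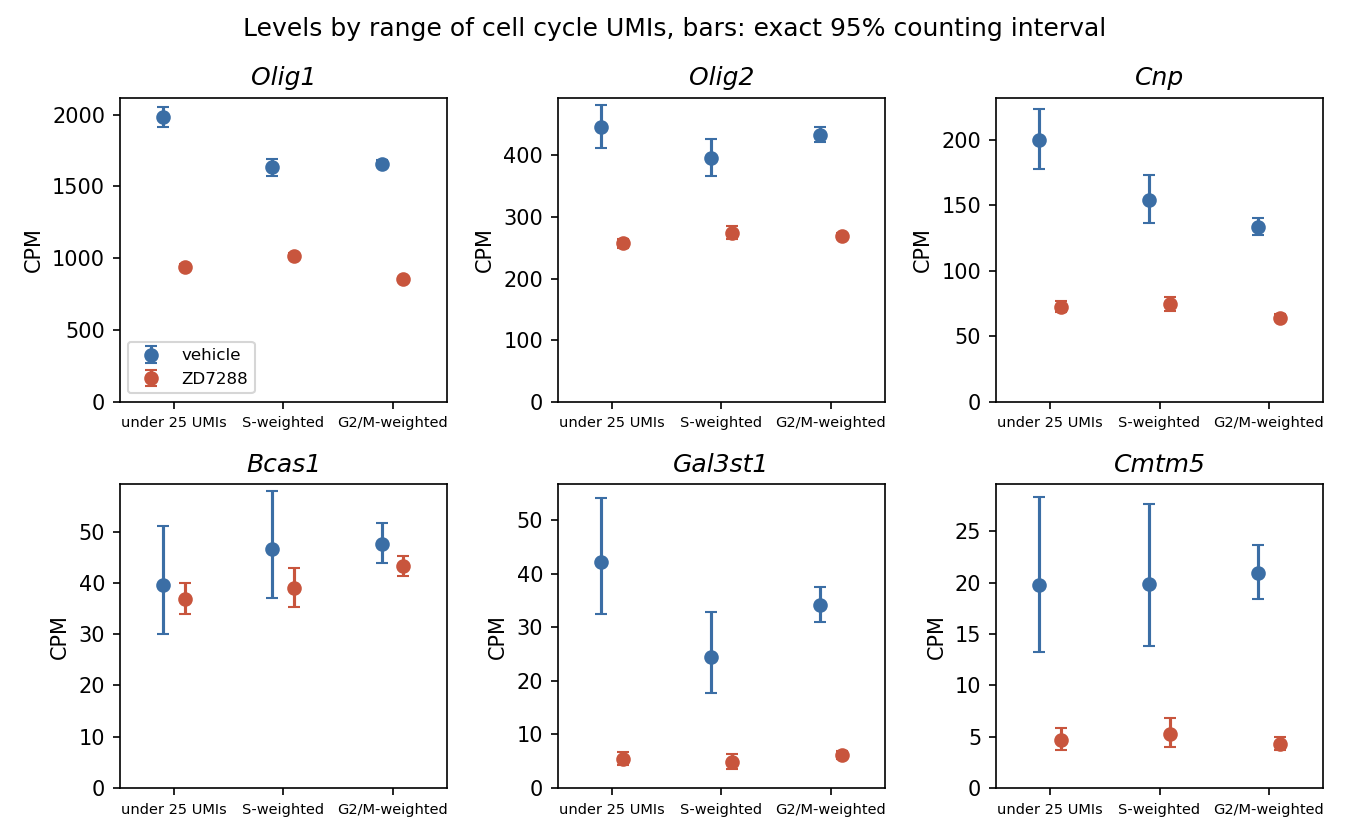
Level in CPM (axes from 0) of the 6 measured members in cells under 25 cell cycle UMIs, S-weighted cells and G2/M-weighted cells, for vehicle (blue, 87, 105 and 518 cells) and ZD7288 (red, 725, 464 and 1649 cells), with exact 95% counting intervals. Treated points of all genes but Bcas1 lie below the vehicle intervals in all 3 ranges.

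Within the treated library, Cnp was lower in cells with more RNA of the ATF4 response, a stress programme that includes amino acid synthesis and import. Treated cells were split into 3 groups of near equal size by UMIs of an ATF4 list at 5000 UMIs per cell, called low, middle and high, with 1004 cells at 2 to 22 UMIs, 927 at 23 to 31 and 907 at 32 to 65. The vehicle cells had a median of 7. Olig1 stood at 1055 CPM (1043 to 1068), 840 CPM (828 to 852) and 775 CPM (764 to 787) from the low to the high group, and Cnp at 87.8 CPM (84.3 to 91.5), 58.2 CPM (55.2 to 61.4) and 54.2 CPM (51.2 to 57.2). Gal3st1 stood at 8.40 CPM (7.32 to 9.58), 4.57 CPM (3.75 to 5.51) and 3.96 CPM (3.18 to 4.86), and Cmtm5 at 6.49 CPM (5.55 to 7.54), 3.69 CPM (2.96 to 4.55) and 3.17 CPM (2.49 to 3.99).

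Even the low group lay below the vehicle library, with Olig1 at 0.625 (0.615 to 0.636) and Gal3st1 at 0.248 (0.211 to 0.290) of the vehicle CPM. Olig2 differed less across the groups, at 281 CPM (275 to 288), 267 CPM (261 to 274) and 252 CPM (246 to 259). Bcas1 had its highest value in the high group, at 36.6 CPM (34.3 to 39.0), 39.3 CPM (36.9 to 41.9) and 48.4 CPM (45.6 to 51.3), and in the high group it was 1.04 times (0.944 to 1.14) the vehicle level. Between the high and the low group, Cnp was the one member of at least 20 CPM that was 1.5-fold lower, at 1.62-fold (1.51 to 1.74), where 0.656% of measured genes were lower and 2.14% higher. The median mitochondrial share went down from low to high, at 5.42%, 4.7% and 4.25%, and the share of cells under 25 cell cycle UMIs went up, at 23.0%, 26.2% and 27.7%, and their part in these values was not tested.

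**Figure D5:**
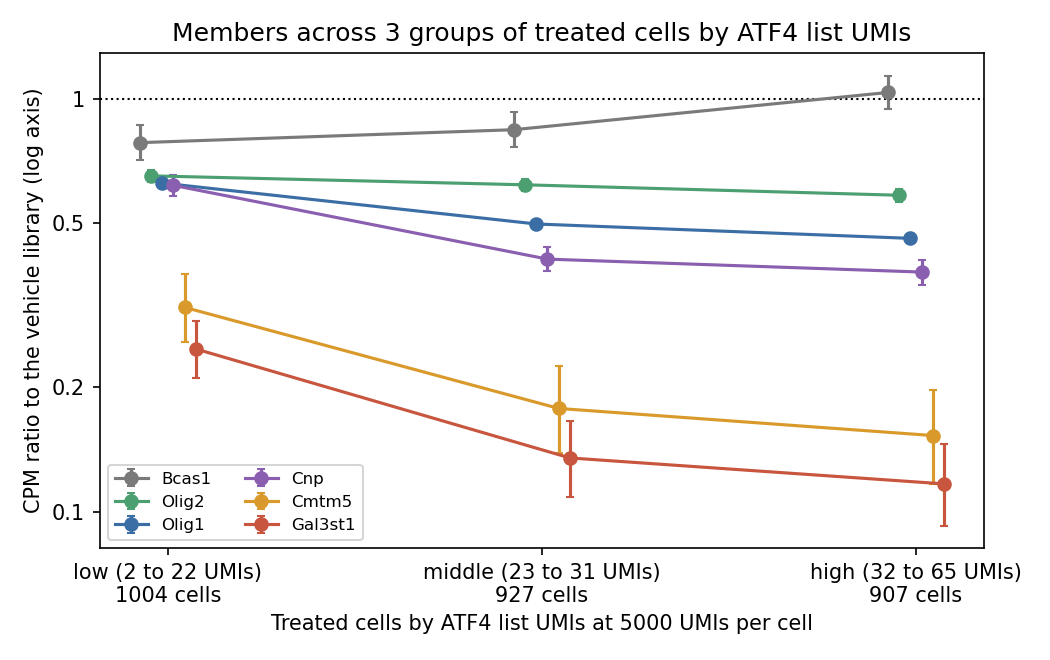
Ratio of CPM in each of 3 groups of treated cells to the vehicle library (log axis, dotted line at 1) for the 6 measured members, with the groups ordered by ATF4 list UMIs and bars for exact 95% counting intervals. Olig1 went from 0.625 to 0.459 and Gal3st1 from 0.248 to 0.117, while Bcas1 went from 0.784 to 1.04.

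Cells with a low and a high mitochondrial share were also taken apart, a split added after the data were seen, because the libraries differed in this share. In cells with at most 5% mitochondrial UMIs, 173 vehicle and 1912 treated cells, Olig1 was 2.15-fold lower (2.09 to 2.21), Cnp 2.84-fold (2.57 to 3.12), Gal3st1 9.82-fold (7.71 to 12.5) and Cmtm5 7.09-fold lower (5.32 to 9.40) in the treated library. Above 5%, in 559 and 1223 cells, these were 1.65-fold (1.62 to 1.68), 1.68-fold (1.58 to 1.79), 3.97-fold (3.38 to 4.66) and 3.22-fold (2.66 to 3.92). Olig2 was 1.96-fold lower (1.86 to 2.07) at most 5% and 1.47-fold lower (1.42 to 1.52) above it, where it no longer passes 1.5-fold. For Olig1 the treated cells differed more between the ranges, as it stood at 810 CPM (801 to 818) at most 5% and 1017 CPM (1006 to 1028) above it, against 1741 CPM (1695 to 1789) and 1674 CPM (1651 to 1697) in vehicle cells.

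Other genes around the lineage went both ways. Over all measured genes, 5.2% were lower and 10.1% higher. The lists were chosen with earlier results of these data known, so nothing is read from a comparison with these shares. Of 4 measured precursor and early lineage genes, 1 was lower and 0 higher, and that was Sox8, a SOX factor related to SOX10, at 103 CPM (98.3 to 108) with vehicle and 66.9 CPM (65.1 to 68.8) with ZD7288. Of 4 measured genes of differentiating and myelinating cells, Tcf7l2, a Wnt effector of the lineage, was 1.84-fold lower (1.70 to 1.99) and Car2, a carbonic anhydrase gene, 1.92-fold higher (1.77 to 2.08). Among 9 measured galactolipid and sphingolipid genes, Gltp, which encodes a glycolipid transfer protein, was 1.86-fold lower (1.77 to 1.95). In the same list Psap, for the activator proteins of lysosomal sphingolipid breakdown, was 1.83-fold higher (1.75 to 1.91) and Asah1, for acid ceramidase, 1.64-fold higher (1.51 to 1.79).

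Of 11 measured partner genes of the basic helix-loop-helix and SOX families, 4 were lower and 1 higher. The lower genes with the widest differences were Hes1 at 1.77-fold (1.57 to 1.98), Sox9 at 1.76-fold (1.67 to 1.85) and Hes6 at 1.56-fold (1.48 to 1.65), and Id1, which encodes an inhibitor of basic helix-loop-helix factors, was 2.23-fold higher (2.11 to 2.37). The remaining lower gene of that list was Id2, at 21.9 CPM with vehicle and 14.6 CPM with ZD7288, and it is named outside the rule. Of 3 measured genes in the PDGF and proteoglycan list, 2 were lower, and neither is a PDGF or proteoglycan gene. Itgb8, for an integrin subunit, was 1.98-fold lower (1.73 to 2.27) and Mmp15, for a metalloproteinase, 1.74-fold lower (1.66 to 1.83). The proteoglycan gene Gpc1, named outside the rule, did not pass, with a ratio of 0.864 (0.805 to 0.928). None of 3 measured relatives of Cmtm5 passed 1.5-fold, with Cmtm7 at 109 CPM (104 to 115) with vehicle and 152 CPM (149 to 155) with ZD7288 and Cmtm3 at 30.3 CPM (27.6 to 33.2) and 31.7 CPM (30.4 to 33.0).

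Markers of other cell types were mostly scarce, and neural stem cell markers were abundant. Of 10 astrocyte markers 6 were under 1 CPM in both libraries, and of the 3 measured 1 was lower and 0 higher, which was Sox9. Of 2 measured neuron markers 0 passed, with Map2 at 96.5 CPM (91.7 to 101) with vehicle and 65.0 CPM (63.2 to 66.9) with ZD7288 and Elavl4 at 36.9 CPM (33.9 to 40) and 45.0 CPM (43.4 to 46.5). Several neuron markers below 20 CPM were higher with ZD7288 and are named after their values were seen. Tubb3, a neuronal tubulin gene, stood at 4.42 CPM (3.44 to 5.59) and 13.0 CPM (12.2 to 13.8), 2.94-fold higher (2.30 to 3.81). The ratio was 2.58 (1.53 to 4.71) for Stmn2, 2.61 (1.37 to 5.57) for Snap25 and 2.07 (1.17 to 3.99) for Rbfox3, and Gad1 had 0 and 35 UMIs. The 14 neuron markers summed to 142 CPM with vehicle and 131 CPM with ZD7288, and their part in the members' levels was not tested. Of 9 measured neural stem cell markers 2 were lower and 2 higher. They were Notch1 at 2.40-fold lower (2.19 to 2.62), Hes1, Msi1 at 1.94-fold higher (1.72 to 2.19) and Slc1a3 at 1.58-fold higher (1.52 to 1.64). The 8 microglia markers summed to 0 CPM with vehicle and 0.0271 CPM with ZD7288, and the 4 endothelial markers found to 0 and 0.326 CPM. Fibroblast and pericyte markers, of cells that carry Pdgfra or its relatives elsewhere, summed to 0.833 and 16.3 CPM. Of these sums, 0.577 and 8.24 CPM were Tagln. The part of such cells in the Pdgfra level was not tested. Of 5 Schwann cell markers found, 4 were under 1 CPM in both libraries, and Pmp22, which other cells also express, stood at 122 CPM (116 to 127) and 125 CPM (123 to 128).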

How the data were processed

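The data were 2 droplet single-cell libraries of rat neural stem cells, 1 per group, made with the 10x Chromium 3′ kit, version 2, per the labels' protocols. The deposited matrix held raw UMI counts per gene and barcode, made by the authors with Cell Ranger, per the submitters' processing notes. Software 3.0.2 is named per the file headers. Build, annotation and barcode calling: not given in the sources used here. Barcodes were given to libraries by their numeric ending.

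Cells with at least 1000 UMIs, 500 genes and at most 10% mitochondrial UMIs were kept, 732 of 842 vehicle and 3135 of 3849 treated barcodes, with 15611454 and 73681950 UMIs. Counts were summed per library and scaled to 1000000 (CPM). Ratios had Clopper-Pearson intervals on the treated share of both counts, levels Poisson and shares binomial intervals, all exact at 95%. Measured meant at least 20 CPM in the higher group, and higher or lower at least 1.5-fold. Cells are not replicates, and no test was run. Cells marked as doublets, those of highest Scrublet score at 0.8% per 1000 cells (4 vehicle and 79 treated), were kept. The ratio step was tested on simulated data. Python 3.11.15, numpy 2.4.6, scipy 1.17.1 and scanpy 1.11.5 were used.

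The members and gene lists were chosen with earlier results of these data known. Named genes were the 10 members, up to 4 measured genes past 1.5-fold in each of 13 lists or the 2 of highest CPM where none passed, and the 4 genes most like Olig1, Olig2, Cnp and Gal3st1 across cells. Alternatives varied the scaling, cells, depth, floor, size rule and thresholds.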

Additional observations from a re-analysis of the deposited data

How the results depend on the processing

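No paired analysis was possible because each group is 1 library. Of the measured members, 5 were lower under both other scalings, with all barcodes, with the stricter cell filter (155 vehicle and 1621 treated cells), with each cell weighted alike, without doublets and after thinning. The stricter filter asked for at least 5000 UMIs, 2000 genes and at most 5% mitochondrial UMIs. Its cells thus lie within the group of at most 5% described above, and it is no separate check of that split. In cells of 10000 to 30000 UMIs 5 were measured and 4 lower. The count was 3 with a floor of 50 CPM, where 3 were measured, 3 with a size rule of 2-fold, 6 of 7 with a floor of 5 CPM and 7 of 10 with no floor beyond 3 UMIs. The median log2 ratio, -0.99, was -1.08 scaled by the median gene ratio, -1.07 scaled without mitochondrial and ribosomal protein genes, -1.31 under the stricter cell filter, -0.89 in cells of 10000 to 30000 UMIs, and -1.07 and -0.91 with floors of 5 and 50 CPM; fewer or other genes enter at the other floors, and for the other settings the cause was not tested. Over 8 alternatives, the log2 ratio ranged from -1.10 to -0.89 for Olig1, -0.96 to -0.67 for Olig2, -1.52 to -1.05 for Cnp, -3.32 to -2.45 for Gal3st1, -2.81 to -1.94 for Cmtm5 and -0.40 to -0.02 for Bcas1, with the lowest value of each under the stricter cell filter. It ranged from -5.39 to -2.0 for Pdgfra and -2.06 to -1.48 for Cspg4. That of Ugt8 ranged from -0.56 to 0.21 and that of Sox10 from -1.41 to 0.07, so neither has a settled direction. Within cell cycle ranges, none of the 82 ratios recomputed with thresholds of 15 and 40 UMIs or with states set at 2000 UMIs changed sign for a measured member. At a threshold of 40 UMIs, the sparse Sox10 went to 0.05 in cells under the threshold and Cspg4 to 0.12 in S-weighted cells, from -1.16 and -1.15. With states at 2000 UMIs, 5 of 6 measured members were lower in S-weighted cells, against 3 of 5. Depth limits Pdgfra, Sox10, Cspg4 and Ugt8, which rest on few UMIs.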

Other observations

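A few vehicle cells held several precursor markers at once, a count made after the values were seen. Without thinning, 11 of 732 vehicle cells, or 1.5% (0.752 to 2.67), held UMIs of at least 2 of Pdgfra, Sox10 and Cspg4, and 1 cell held all 3. In the treated library 3 of 3135 cells, or 0.0957% (0.0197 to 0.279), held at least 2 and 0 held all 3, which allows a share of up to 0.0957% by 3 cells. The 11 vehicle cells were deep, with a median of 45060 UMIs against 17022 in the other vehicle cells, and depth raises such counts. Set beside the other 721 vehicle cells, they differed little in Olig1. Cnp, Cmtm5, Ugt8 and Bcas1 had higher values and Olig2 and Gal3st1 lower ones, all with overlapping intervals. In the 11 cells Ugt8 rested on 4 UMIs, Gal3st1 on 16 and Cmtm5 on 20. Olig2 stood at 418 CPM (368 to 473) against 432 CPM (422 to 443). Olig1 stood at 1691 CPM (1589 to 1799) against 1687 CPM (1666 to 1708), Cnp at 176 CPM (144 to 213) against 141 CPM (135 to 147), Cmtm5 at 33.2 CPM (20.3 to 51.2) against 20.3 CPM (18.0 to 22.7), Ugt8 at 6.63 CPM (1.81 to 17.0) against 3.40 CPM (2.53 to 4.47), Bcas1 at 59.7 CPM (41.8 to 82.6) against 46.2 CPM (42.8 to 49.7) and Gal3st1 at 26.5 CPM (15.2 to 43.1) against 34.2 CPM (31.3 to 37.3).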
